A study of Homo sapiens with 6 samples.

Results

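The genes described here are the inhibitor of DNA binding genes ID1, ID2, ID3 and ID4, the inhibitory SMAD genes SMAD6 and SMAD7, the receptor-regulated SMAD gene SMAD3, and SKIL, which codes for a SMAD corepressor. These 8 genes were chosen by symbol, from 25211 distinct gene symbols on the array, with their leflunomide against DMSO values in these arrays already known. Their differences between the groups are therefore given as a description, and the limma calls printed for them are no independent test. The cells were A375, an established human melanoma line with mutant BRAF, and a single line in a single medium was used throughout. The treated group was 3 arrays of A375 cells given 25 µM leflunomide for 3 days, and the control group was 3 arrays of A375 cells given the solvent DMSO for 3 days. Leflunomide is a prodrug whose active metabolite inhibits dihydroorotate dehydrogenase, an enzyme of pyrimidine synthesis. RNA was measured on Illumina bead arrays, which report a signal for each gene and a detection p-value against negative control beads. Whether the arrays of a group came from separate cultures is not given in the labels, and the p-values below reflect array-to-array spread that may be purely technical.

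Bone morphogenetic proteins (BMPs) and transforming growth factor beta (TGF-beta) bind paired type I and type II receptors, which phosphorylate receptor-regulated SMAD proteins. These join SMAD4 and enter the nucleus, where they bind DNA and change transcription. ID1, ID2 and ID3 are among the best known genes switched on by BMP signals. ID proteins lack a DNA-binding region and pair with E proteins, such as those from TCF3, TCF4 and TCF12, which keeps E proteins off DNA. SMAD6 and SMAD7 are also switched on by the pathway and act back on its receptors, and SKIL protein holds SMAD complexes inactive.

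The third leflunomide array stood apart from the other 5. Its log2 values correlated with theirs at 0.890 to 0.902, against 0.988 to 0.997 among the other 5 arrays, and its mean signal was 128.9, against 261.7 to 370.5. It detected 11816 rows of the file, against 13235 to 14020 on the others. Results that rest on it are given with and without it. The cell line was checked against melanoma markers: SOX10, S100A1, MIA and CSPG4 were detected on all 6 arrays, which is 4 of 13 markers, whereas 5 of 13, the pigment cell genes MLANA, TYR, TYRP1 and DCT and the gene S100B, were detected on none. Of markers of other cell types, 1 of 8 for fibroblasts, 0 of 6 for endothelial cells, 2 of 8 for keratinocytes and 1 of 7 for leukocytes were detected on all 6 arrays. Among all these markers, limma called PDGFRB higher (log2 difference 0.90 ± 0.12, SE) and PMEL lower in leflunomide-treated cells. PMEL was dim, with leflunomide signals of 64.4, 66.1 and 47.2, and was detected on 1 of 3 leflunomide arrays. The fibroblast markers DCN and LUM gave -0.68 ± 0.13 and -1.04 ± 0.20 and were not called. Without the third leflunomide array PDGFRB was called higher, and PMEL, DCN, LUM, the keratinocyte markers KRT14 and KRT10 and the leukocyte markers LYZ and CD68 were called lower. Of all genes tested, limma called 1.07% over all 6 arrays and 19.3% without the third leflunomide array. The part of such marker changes in the results was not tested.

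The promoters of 4 members are shown. After quantile normalization ID1 and ID3 were lower and SMAD6 and SMAD7 higher in leflunomide-treated cells. Under median scaling, in which arrays are brought to equal medians over all rows, SMAD6 and SMAD7 gave log2 differences of -0.08 and -0.34. The median of all genes tested was then -0.53. RefSeq, build GRCh38.p14, matched all 8 members, with 14 promoter entries. Each sequence is the 250 bases upstream of an annotated start, the first entry for SMAD7, and lies outside the gene's transcribed region. Capitals mark 3 SMAD motifs on either strand: the palindrome GTCTAGAC, the core CAGAC and the GC-rich GGCGCC. The core does not occur inside the palindrome.
ID1, chr20:31605039-31605288, plus strand: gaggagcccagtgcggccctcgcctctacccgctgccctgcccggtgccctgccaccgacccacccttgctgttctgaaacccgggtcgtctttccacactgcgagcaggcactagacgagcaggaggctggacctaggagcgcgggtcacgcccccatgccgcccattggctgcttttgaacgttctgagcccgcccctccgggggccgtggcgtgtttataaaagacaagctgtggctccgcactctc
ID3, chr1:23559502-23559751, minus strand: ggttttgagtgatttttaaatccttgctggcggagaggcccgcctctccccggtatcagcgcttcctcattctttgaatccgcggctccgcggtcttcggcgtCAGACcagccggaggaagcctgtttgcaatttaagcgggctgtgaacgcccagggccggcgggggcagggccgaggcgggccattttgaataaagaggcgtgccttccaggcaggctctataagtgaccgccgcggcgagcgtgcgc
SMAD6, chr15:66701986-66702235, plus strand: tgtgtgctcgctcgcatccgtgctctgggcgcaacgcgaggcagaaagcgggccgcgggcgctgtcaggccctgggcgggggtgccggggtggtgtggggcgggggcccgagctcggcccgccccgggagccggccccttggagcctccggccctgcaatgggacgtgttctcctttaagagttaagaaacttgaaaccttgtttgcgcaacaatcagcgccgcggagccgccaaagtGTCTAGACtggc
SMAD7, chr18:48950966-48951215, minus strand: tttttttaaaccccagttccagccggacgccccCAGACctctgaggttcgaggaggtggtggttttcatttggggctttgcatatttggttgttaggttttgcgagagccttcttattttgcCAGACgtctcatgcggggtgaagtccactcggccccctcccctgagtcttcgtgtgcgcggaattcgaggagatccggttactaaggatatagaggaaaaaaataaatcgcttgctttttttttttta
The SMAD6 window holds the palindrome 12 to 5 bases before the start, a sequence found in 64 of 35116 promoters of this length, or 0.182%. The core CAGAC is common, at 38.0% of promoters. It occurs once in the ID3 window, 147 to 143 bases before the start, and at 2 places in the SMAD7 window, 217 to 213 and 128 to 124 bases before the start. None of the 3 motifs occurs in the ID1 or ID2 window; in ID1, known BMP-responsive sequences lie further upstream than this window. GGCGCC, in 16.4% of promoters, occurs at 2 places in the first SMAD3 window and once in the SKIL window, and ID4 and SKIL each hold 1 core. Other motifs searched on both strands were TATAAA (10.7% of promoters), CCAAT (32.0%), TGACGTCA (1.65%), its part TGACG (21.2%), CANNTG (61.8%) and GCGGGGGCG (4.72%). Only some of their matches are given here. ID1 holds TATAAA 31 to 26 bases before the start, with its reverse complement overlapping it. TATAAA also occurs in ID4, 29 to 24 bases before the start, and in the second SMAD7 window, 35 to 30 bases before it. ID2 holds the CANNTG match CAGCTG 205 to 200 bases before the start, and SKIL holds TGACGTCA 54 to 47 bases before it. The TGACG match of ID3, on the reverse strand, overlaps its core. A match is a description of letters and not of a bound site.

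The 3 detected ID genes, ID1, ID2 and ID3, gave lower normalized values in leflunomide-treated cells than in DMSO-treated cells. ID3, which codes for an ID protein widely made in growing cells, had deposited signals of 1634, 2301 and 385 on leflunomide arrays 1 to 3, against 2781, 3814 and 2446 on the DMSO arrays. Every leflunomide array was below every DMSO array, and the third leflunomide array was far below the other 2 of its group. After quantile normalization ID3 was 10.77, 10.76 and 9.87 log2 units on leflunomide, against 11.14, 11.36 and 11.00 on DMSO. Its log2 difference was -0.70 ± 0.27 (SE, n = 3 each), 1.62-fold lower, and -0.39 ± 0.12 or 1.31-fold lower without the third leflunomide array. When the arrays were brought to equal medians over all rows instead of being quantile normalized (median scaling), it was -1.35. The median difference of the genes that passed the detection filter and were tested was then -0.53.

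ID2, an ID gene best known in lymphoid and neural development, was dim on these arrays. Its signals were 88.2, 101 and 48.8 on leflunomide, against 131, 178 and 125 on DMSO. The negative control means, inferred from the detection p-values, were 56.5, 59.6 and 36.8 on leflunomide arrays 1 to 3. On DMSO arrays 1 to 3 they were 56.8, 59.1 and 58.9. The leflunomide signals of ID2 therefore stood close above the inferred background. Its normalized log2 values of 5.75, 5.65 and 5.34 on leflunomide were all below the 6.25, 6.52 and 6.14 on DMSO. The log2 difference was -0.72 ± 0.16 (SE), 1.65-fold lower, and -0.66 ± 0.12 without the third leflunomide array. Under median scaling it was -1.17. This size leans on the background correction: with control parameters taken from all rows of the file the difference was -0.08.

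ID1, the ID gene most often used as a readout of BMP signalling, had signals of 1115, 1684 and 475 on leflunomide, against 1705, 2206 and 1848 on DMSO. The groups did not overlap, and the normalized values lay close together, at 10.24, 10.30 and 10.21 log2 units on leflunomide against 10.39, 10.52 and 10.55 on DMSO. The log2 difference was -0.24 ± 0.10 (SE), 1.18-fold lower, and -0.21 ± 0.10 without the third leflunomide array. Under median scaling it was -0.94. ID4 was not detected on any array: its signals were 47.8, 53.7 and 38.0 on leflunomide, against 53.5, 48.6 and 54.4 on DMSO, all near the negative controls, and it was not tested.

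**Figure D1:**
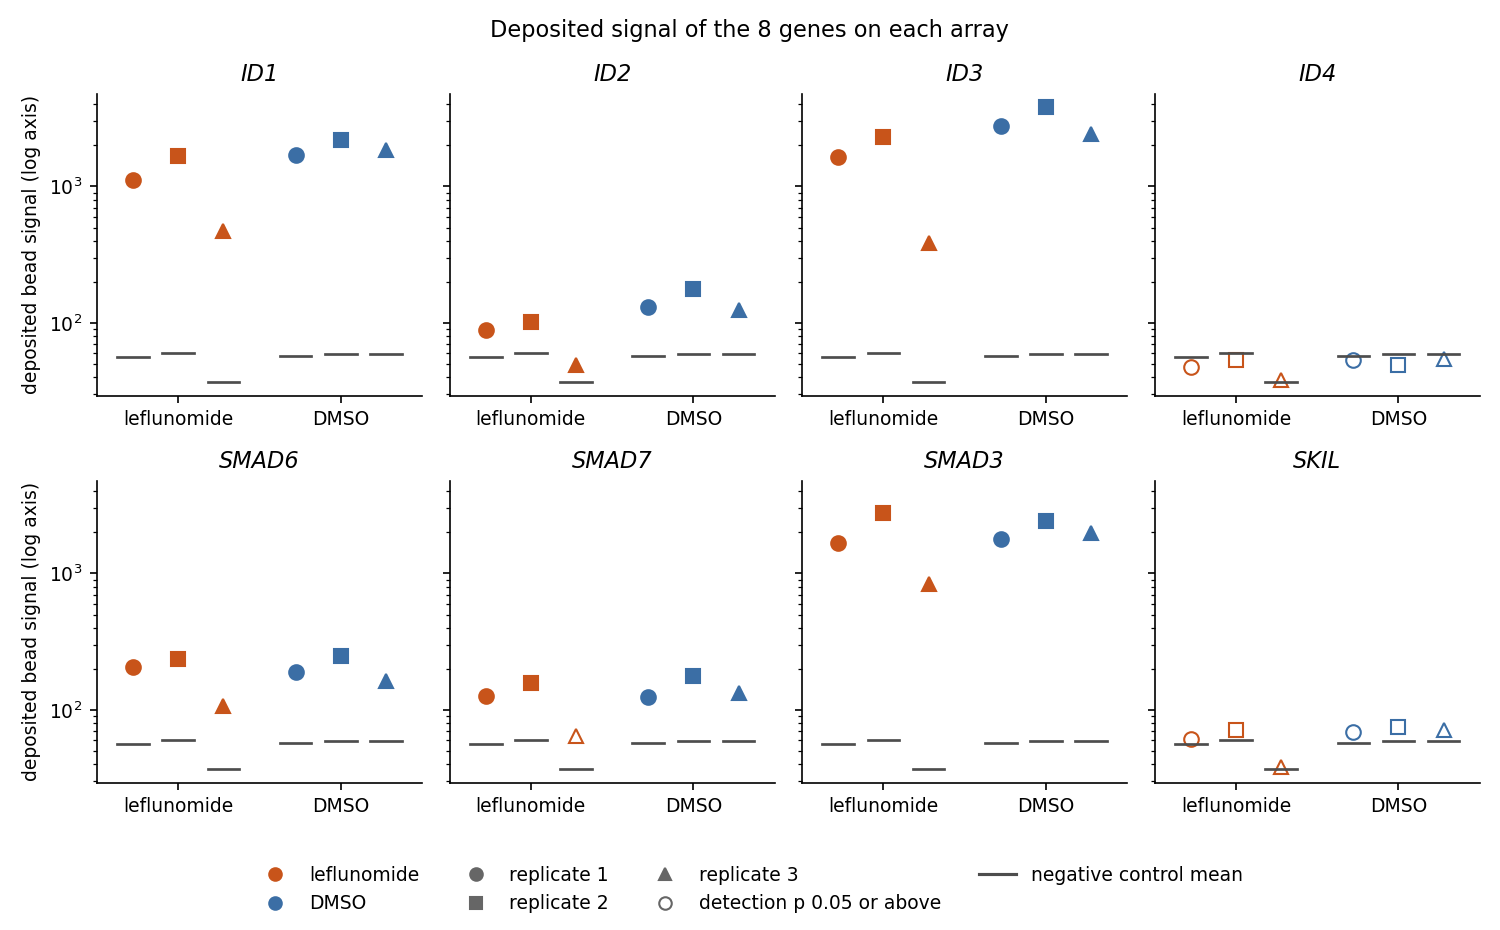
Deposited signal of each of the 8 members on a log axis, 1 point per array, leflunomide arrays left of DMSO arrays. ID3 is at 385 on leflunomide array 3 and at 1634 to 3814 on the other 5 arrays, and ID4 and SKIL lie near background on all 6.

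SMAD6, SMAD7 and SMAD3 showed the opposite order after quantile normalization, but not in the deposited signals or under median scaling. Their differences under median scaling were below 0 but above the median of all tested genes, which was -0.53. SMAD6, whose protein blocks BMP receptor signalling, had signals of 206, 237 and 106 on leflunomide, against 190, 248 and 164 on DMSO, and these overlapped. Its normalized log2 values of 7.53, 7.25 and 7.79 on leflunomide were all above the 6.96, 7.08 and 6.68 on DMSO. The log2 difference was 0.62 ± 0.18 (SE), 1.54-fold higher, and 0.51 ± 0.13 without the third leflunomide array. Under median scaling the same difference was -0.08, and with control parameters from all rows it was 0.19.

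SMAD7, whose protein blocks both TGF-beta and BMP receptors, had signals of 126, 159 and 64.5 on leflunomide, against 124, 177 and 132 on DMSO. The value of 64.5 had a detection p of 0.053, so SMAD7 was detected on 2 of 3 leflunomide arrays and on all 3 DMSO arrays. For SMAD7, as for ID1, ID2 and SKIL, the detection p is not a rank of the signal among the negative controls. On the same array the lower ID2 signal of 48.8 had a detection p of 0.0012, so these values do not order the genes by distance from background. Its normalized log2 values were 6.58, 6.54 and 6.63 on leflunomide and 6.14, 6.51 and 6.25 on DMSO, which do not overlap but nearly meet. The log2 difference was 0.29 ± 0.12 (SE), 1.22-fold higher, -0.34 under median scaling and 0.04 with control parameters from all rows.

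SMAD3, which carries TGF-beta and activin signals to the nucleus, had signals of 1662, 2767 and 841 on leflunomide, against 1806, 2418 and 1966 on DMSO. Its normalized log2 values of 10.80, 11.04 and 10.96 on leflunomide were above the 10.49, 10.66 and 10.66 on DMSO. The log2 difference was 0.33 ± 0.11 (SE), 1.25-fold higher, and -0.32 under median scaling. SKIL was not detected on any array, with signals of 61.5, 71.6 and 38.0 on leflunomide against 68.8, 74.8 and 70.9 on DMSO, and was not tested. In bulk RNA from a cell line, a change in the share of cells with a transcript and a change in its level per cell cannot be told apart.

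**Figure D2:**
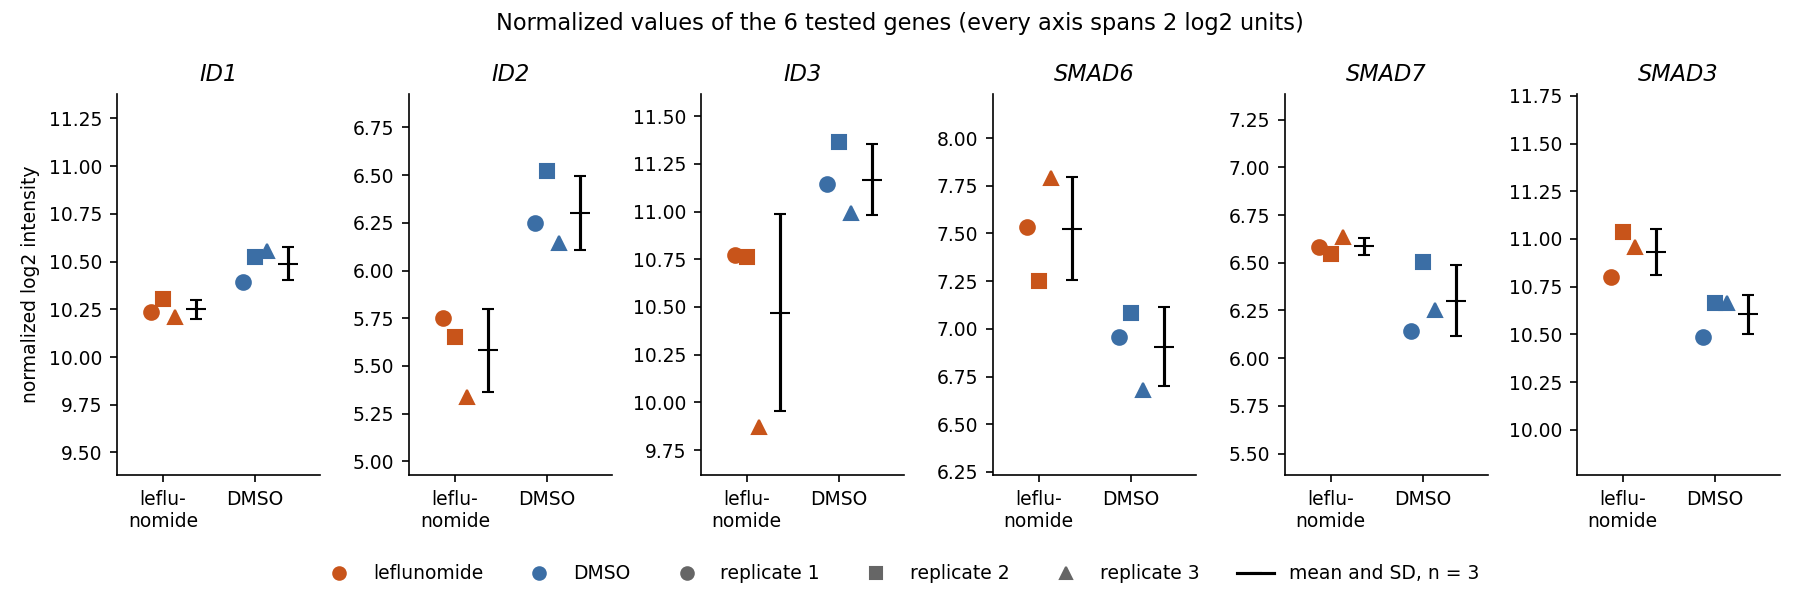
Quantile-normalized log2 value of the 6 tested members, 1 point per array, leflunomide left of DMSO, with mean and SD bars (n = 3). The 3 ID genes have all leflunomide arrays below all DMSO arrays, and the 3 SMAD genes have them above.

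After quantile normalization the 6 tested members split by kind, 3 lower and 3 higher, and for none of the 6 did the groups overlap. Of 12345 genes tested, 29.8% had groups that did not overlap, 15.3% lower and 14.5% higher. None of the 6 had a limma adjusted p under 0.05 over all 6 arrays, and 1.07% of all genes tested were called. At an unadjusted p under 0.05 the counts were 5 of the 6 members and 16.9% of all genes. Without the third leflunomide array, ID2 and ID3 were called lower and SMAD6 higher, where 19.3% of genes were called, 9.94% lower and 9.33% higher. Since these values chose the members, nothing is read from the counts. Ranked by log2 difference, 5.4% of genes lay at or below ID2, 5.7% at or below ID3 and 22.4% at or below ID1. Without the third leflunomide array these shares were 2.4%, 7.6% and 18.8%. On the high side, 97.4% of genes lay at or below SMAD6, 85.2% at or below SMAD3 and 82.0% at or below SMAD7. Without that array the shares were 96.3%, 88.5% and 86.7%.

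**Figure D3:**
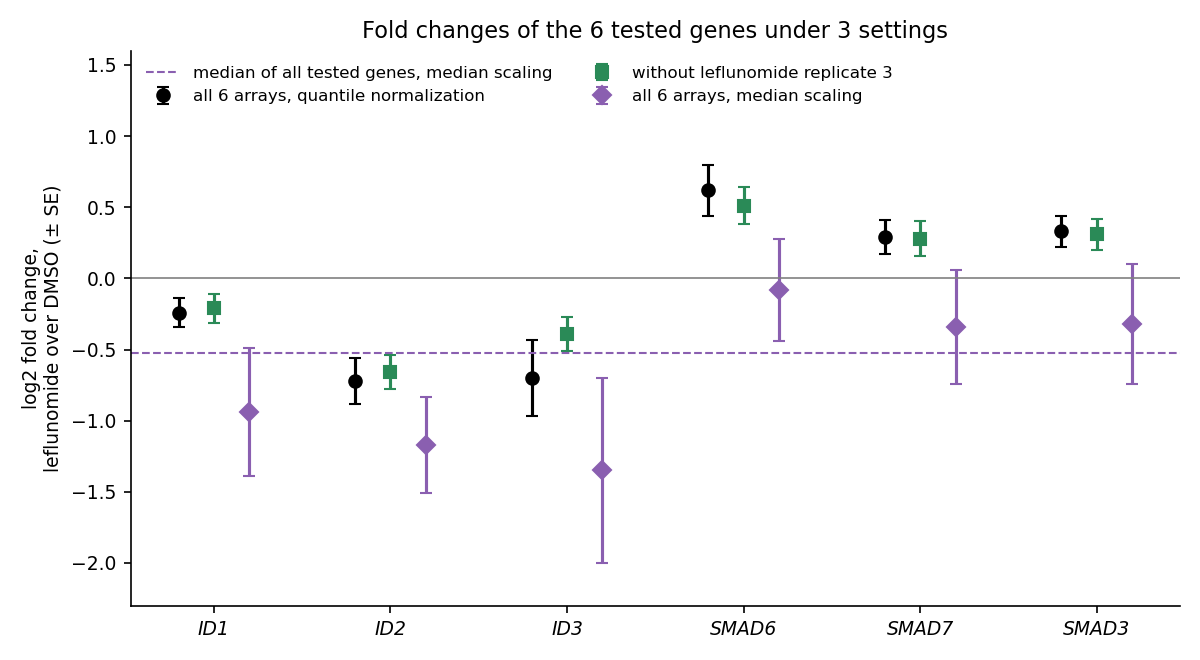
Log2 difference of each tested member, leflunomide minus DMSO, with SE bars, over all 6 arrays, without leflunomide array 3, and under median scaling, with a dashed line at that scaling's median of all tested genes. ID1, ID2 and ID3 are below 0 in all 3 fits; the SMAD genes are above 0 in the first 2 and below 0 under median scaling.

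Scaling shifts all genes together, so the members' ratios were also taken within each array, on background-corrected signals with no scaling between arrays; this comparison was added after the data were seen. All 9 log2 ratios of an ID gene to a SMAD gene were lower on every leflunomide array than on every DMSO array. The ratio of ID1 to SMAD3 was -0.60, -0.74 and -0.88 on leflunomide, against -0.09, -0.14 and -0.09 on DMSO. ID2 over SMAD7 was -1.14, -1.27 and -1.16 on leflunomide, against 0.14, 0.01 and -0.16 on DMSO. The differences ran from -0.48 for ID1 over SMAD7 to -1.56 for ID2 over SMAD6, and from -0.49 to -1.44 without the third leflunomide array. The 9 ratios share 6 signals and restate the values that chose the members, so they are a description. Ratios of other gene pairs were not taken, so nothing is read from the count of 9. Those with the dim genes ID2, SMAD6 or SMAD7 also rest on the background correction.

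**Figure D4:**
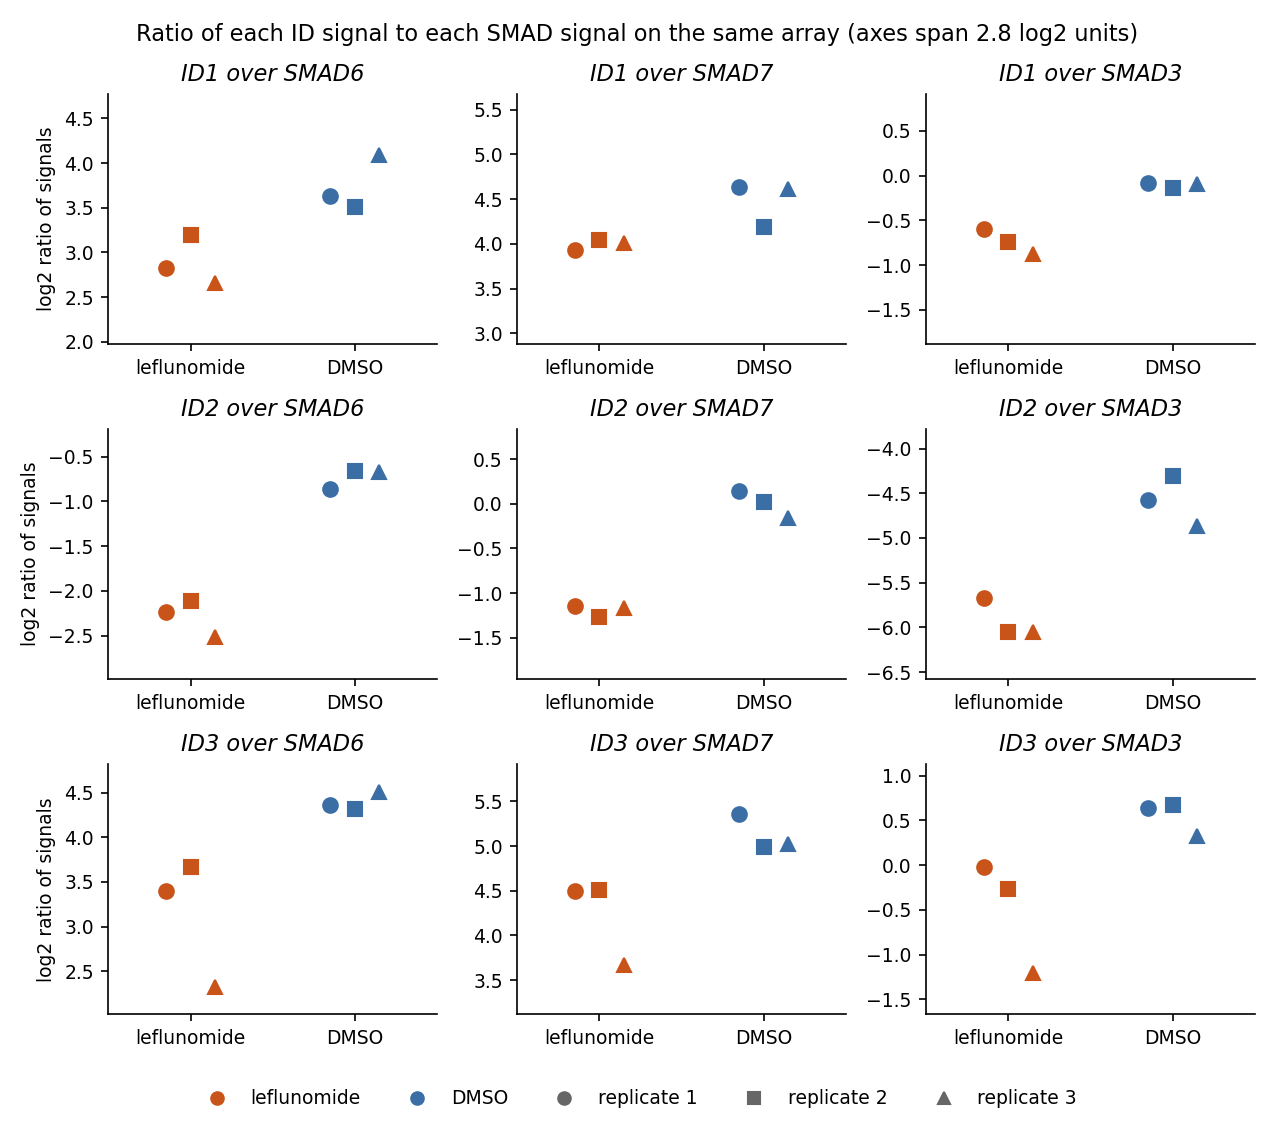
Log2 ratio of each ID gene to each SMAD gene within each array, 1 point per array, leflunomide left of DMSO. All 9 ratios sit lower on the leflunomide arrays, with mean differences of -0.48 to -1.56.

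The genes whose normalized values most resembled each ID gene were sought among 8528 genes by Pearson's r over the 6 arrays. Points of the 2 groups enter r together, so a difference between the groups alone gives a high r. CALCOCO1 (0.9948), TAP1 (0.9880) and H2BC21 (0.9872) lay closest to ID1, and 42 genes had an r over 0.95. SLC35A2 (0.9905) and KRT10 (0.9893) were among the genes closest to ID2, with 113 genes over 0.95. E2F7 (0.9975), HSPH1 (0.9974) and PRPS1 (0.9968) lay closest to ID3, with 265 genes over 0.95. Over the 5 arrays without leflunomide array 3, r for these 8 genes was 0.981 to 0.995.

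Around the members, 145 other pathway genes were listed, of which 87 were tested. Over all 6 arrays limma called 3 of the 87, all lower, where 1.07% of all genes tested were called. The 3 were ACTA2, PPP1R15A and CDKN1A. Without the third leflunomide array it called 12 higher and 12 lower, where 19.3% of all genes were called, 9.33% higher and 9.94% lower. The lists were chosen with earlier results known, so nothing is read from these counts or those of each list below. When an array other than leflunomide array 3 was left out, ACTA2 was called each time, CDKN1A also without leflunomide array 2, and PPP1R15A in none of these fits. The median log2 difference of the 87 was -0.03, against -0.002 for all genes tested. Under median scaling none of the 87 was called. Of the genes named below, BMPR1A, BMPR2, ENG, FST, NBL1, FSTL1, TWSG1, SMAD5, SMAD4, CTDSPL, CTDSP1, TCF3 and LYL1 turned from positive to negative differences. The median of all tested genes was then -0.53, and of these genes only TWSG1 and SMAD4 lay below it.

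Among 27 ligand genes, 7 were tested and none was called over all 6 arrays. BMP2, a BMP ligand that signals to SMAD1 and SMAD5, had signals of 248, 353 and 149 on leflunomide, against 670, 930 and 783 on DMSO, with every leflunomide array below every DMSO array. Its log2 difference was -1.09 ± 0.17 (SE; limma adjusted p = 0.051), and -1.25 without the third leflunomide array (adjusted p = 1.3e-05). BMP6, another BMP ligand, gave -0.83 ± 0.24 (adjusted p = 0.16) and -0.68 without that array (adjusted p = 0.0057); with control parameters from all rows it was -0.07. AMH, coding for anti-Müllerian hormone, had a signal of 10.5 on leflunomide array 3, against 108 to 139 on the other arrays, and was not detected there. The median of the 7 ligands was -0.42, and -0.18 without the third leflunomide array.

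Of 17 receptor and co-receptor genes, 11 were tested and none was called. Without the third leflunomide array BMPR1A and BMPR2, a type I and a type II BMP receptor, were called higher. BMPR1A, however, was detected on only 1 of 3 leflunomide arrays, against all 3 DMSO arrays. Its log2 difference was 0.27 ± 0.10 over 6 arrays (limma adjusted p = 0.27) and 0.32 over 5 (adjusted p = 0.044). Under median scaling it was -0.40, and with control parameters from all rows 0.06. BMPR2 had a log2 difference of 0.38 ± 0.11 over 6 arrays (limma adjusted p = 0.17) and 0.34 over 5 (adjusted p = 0.041), and -0.33 under median scaling; it was chosen after its values were seen. ENG, a co-receptor, gave 0.56 ± 0.24 (adjusted p = 0.32), and 0.30 over 5 arrays. TGFBR2, the type II TGF-beta receptor, gave -0.54 ± 0.34 (adjusted p = 0.48), and -0.14 without the third leflunomide array, where its signal of 169 compared with 835 and 1217 on the other leflunomide arrays. RGMB, a BMP co-receptor, gave -0.43 ± 0.19 (adjusted p = 0.33), -0.27 over 5 arrays and -0.03 with control parameters from all rows.

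Genes for secreted antagonists numbered 18, and 7 were tested, none called over 6 arrays. FST, which codes for follistatin, a binder of activins, gave 0.56 ± 0.17 (limma adjusted p = 0.17) and 0.43 over 5 arrays (adjusted p = 0.026). FSTL1 gave 0.43 ± 0.11 (adjusted p = 0.13) and 0.37 over 5 arrays (adjusted p = 0.020). NBL1, a BMP antagonist, gave 0.51 ± 0.25 (adjusted p = 0.36), and 0.24 over 5 arrays. FSTL3 and TWSG1, chosen after their values were seen, moved opposite ways over 5 arrays, with FSTL3 called lower at -0.43 (adjusted p = 0.011) and TWSG1 higher at 0.47 (adjusted p = 0.022). Over all 6 arrays they gave -0.04 ± 0.33 and 0.17 ± 0.27. Of the other SMAD genes, SMAD5, which carries BMP signals, gave 0.41 ± 0.10 (adjusted p = 0.14) and 0.36 over 5 arrays (adjusted p = 0.025). SMAD4, the shared partner, gave 0.05 ± 0.11 (adjusted p = 0.83).

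Of 25 genes for regulators of SMADs, 23 were tested and 1 was called, lower. PPP1R15A, a stress-induced phosphatase subunit that can dephosphorylate the type I TGF-beta receptor, had a log2 difference of -1.22 ± 0.10 (limma adjusted p = 0.010). The small phosphatases CTDSPL and CTDSP1, which can remove phosphate from SMADs, gave 0.69 ± 0.15 and 0.66 ± 0.24 (adjusted p = 0.11 and 0.25). Over 5 arrays they gave 0.57 and 0.39, and both were called higher (adjusted p = 0.0037 and 0.016).

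TGF-beta and BMP target genes numbered 35, and of the 28 tested 2 were called, both lower. ACTA2, smooth muscle actin, had signals of 603, 895 and 255 on leflunomide against 4307, 5189 and 4285 on DMSO, and a log2 difference of -2.51 ± 0.09 (limma adjusted p = 0.00056). CDKN1A, coding for a cyclin-dependent kinase inhibitor, gave -2.13 ± 0.13 (adjusted p = 0.0049). ATOH8, a transcription factor gene chosen after its values were seen, was the highest of the list at 1.26 ± 0.38 (adjusted p = 0.18), and 0.94 over 5 arrays (adjusted p = 0.0010); with control parameters from all rows it was 0.15. Over 5 arrays 2 of the 28 were called higher and 7 lower, where 9.33% of all genes were called higher and 9.94% lower. The median of the 28 was -0.17.

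Among 21 genes for E proteins and other ID partners, 11 were tested and none was called. TCF3, which codes for the E proteins E12 and E47, gave 0.66 ± 0.26 (limma adjusted p = 0.27) and 0.39 over 5 arrays (adjusted p = 0.026). ELK3, an ETS factor, gave -0.58 ± 0.26 (adjusted p = 0.33), -0.32 over 5 arrays and -0.05 with control parameters from all rows. LYL1, a partner of E proteins, gave 0.55 ± 0.39 (adjusted p = 0.51), and 0.09 over 5 arrays. The median of the 11 was -0.01, and 0.09 over 5 arrays.

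**Figure D5:**
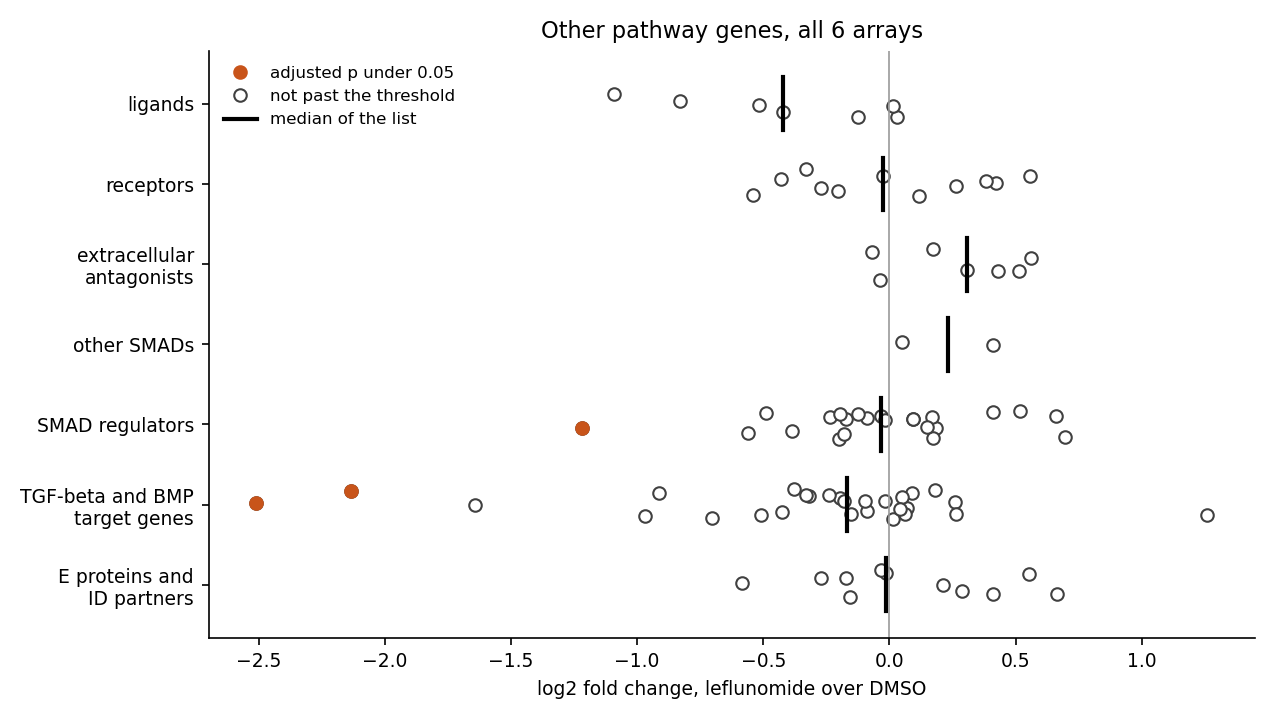
Log2 difference, leflunomide minus DMSO, of each tested pathway gene by list, with genes called by limma filled and a line at each list's median. ACTA2, CDKN1A and PPP1R15A, at -2.51, -2.13 and -1.22, are the called genes over all 6 arrays.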

How the data were processed

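RNA of 6 A375 arrays was measured; members and gene lists were chosen with earlier results of these data known. The deposited intensity signals and detection p-values came from GenomeStudio, per the submitters' processing notes. Background was corrected with limma 3.58.1 (R 4.3.3) by normexp, with control parameters inferred from the 32290 rows whose detection p-values are ranks among 759 negative controls. An offset of 16 was added, then log2 and quantile normalization followed. Genes detected (p under 0.05) on at least 3 of 6 arrays were kept, 1 row a symbol (the highest mean), which gave 12345 genes. The order of log2 and quantile normalization, the rows used for control parameters, and renormalizing after an array was left out were settled after counts had been seen; the earlier forms are among the alternatives. Symbols were updated through RefSeq. Groups were compared by limma with Benjamini-Hochberg adjustment, at an adjusted p under 0.05. In each list, up to 3 tested genes with the largest log2 difference in size were named, and for ID1, ID2 and ID3 the 3 genes with the highest r; other named genes are stated as chosen later or were called. Some genes that this rule names are not reported here. The fit was also run on simulated data. The outcome of that run is not given here, so no conclusion about the fit is drawn from it. A second deposited table, without gene names, served to check array identity.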

Additional observations from a re-analysis of the deposited data

How the results depend on the processing

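Over all 6 arrays 132 genes, 0 members and 3 pathway genes were called. Median scaling called 0 genes by limma (1675 at an unadjusted p under 0.05), and 0 pathway genes. Array quality weights called 2549 genes, 3 members and 28 pathway genes, although their fit stopped before converging. Leaving out 1 array gave 3 to 2379 genes, 0 to 3 members and 1 to 24 pathway genes, the highest without leflunomide array 3, while leaving out any other array gave 3 to 5 genes. An offset of 50, no detection filter, detection on all 6 arrays and an intensity trend gave 132, 186, 161 and 108 genes, with 0 members and 3 or 4 pathway genes. The numbers tested differed: 25233 genes, 8 members and 144 pathway genes with no filter. With detection on all 6 arrays they were 8536, 5 and 60. The 3 forms used earlier were kept as alternatives added after the data were seen. Leaving out that array after normalizing all 6 gave 2466 genes, 3 members and 27 pathway genes, quantile normalization before log2 gave 127 genes, and control parameters from all rows with that order gave 171. The last also gave log2 differences of -0.08 for ID2, 0.19 for SMAD6 and 0.04 for SMAD7, and smaller ones for BMP6 (-0.07), AMH (-0.04), BMPR1A (0.06), BMPR2 (0.14), ENG (0.34), RGMB (-0.03), FSTL1 (0.18), SMAD5 (0.21), CTDSP1 (0.22), ATOH8 (0.15), TCF3 (0.25), ELK3 (-0.05) and LYL1 (0.17), and turned FSTL3 to 0.02. The replicate block called 4 genes and 1 pathway gene. Same-numbered arrays had deviations correlated at -0.0086, 0.2061 and 0.2156, and arrays of different numbers at -0.2392 to 0.1792. The labels state no shared day or batch for a replicate number, so the main fit used no block. Whether the numbers mark pairs is not known. Median scaling moved the median of all tested genes to -0.53. It turned the sign of SMAD6 (-0.08), SMAD7 (-0.34), SMAD3 (-0.32), BMPR1A (-0.40), BMPR2 (-0.33), ENG (-0.17), FST (-0.17), NBL1 (-0.22), FSTL1 (-0.29), TWSG1 (-0.55), SMAD5 (-0.32), SMAD4 (-0.68), CTDSPL (-0.05), CTDSP1 (-0.05), TCF3 (-0.04) and LYL1 (-0.14). Of these only TWSG1 and SMAD4 lay below that median. The same scaling took ID1, ID2 and ID3 to -0.94, -1.17 and -1.35. AMH ran from -0.85 to 0.14 when 1 array was left out, the highest without leflunomide array 3, and reversed to 0.07 with array weights and to 0.13 with that array left out after normalization. When 1 array was left out, FSTL3 ran from -0.43 to 0.16 and TWSG1 from -0.02 to 0.47. Other causes were not tested. The second deposited table was not run, since no table naming its probes was used here. With 3 arrays a group, precision is limited, and dim genes such as ID2 and SMAD7 depend on the background estimate.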
